A study of Caenorhabditis elegans with 80 samples.

Results

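The fbxa genes are the F-box A family of the nematode Caenorhabditis elegans. They were taken here as every gene in the count table whose WormBase symbol is fbxa followed by a number, which gave 170 gene IDs of 46904. All 170 are annotated as protein-coding, and they carry 169 distinct symbols, because the symbol fbxa-41 stands on a pair of gene IDs. RNA was sequenced from whole hermaphrodites of the strain CF1038, which carries the mu86 allele of daf-16, at day 6 in 20 libraries. Wild-type N2 hermaphrodites were sequenced at day 6 in a set of 30 libraries, and in a separate time course at days 6, 8, 11, 14 and 18 with 6 libraries per age. All worms were kept at 20 °C on plates with OP50-1 bacteria and streptomycin, and all were exposed to FUDR, a drug that blocks DNA synthesis and so keeps worms from having progeny. CF1038 is a single strain, so mu86 and any other difference of that strain from N2 cannot be told apart. Separate cultures are not named in the labels, so p-values measure the spread between libraries, which may be technical.

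An F-box protein is the part of an SCF ubiquitin ligase that picks the protein to be tagged with ubiquitin. It binds a Skp1-like adaptor (an SKR protein in C. elegans) through its F-box, and the adaptor joins it to a cullin scaffold. C. elegans has a far larger set of F-box genes than most animals, and many stand side by side in tandem arrays. Proteins of the A family pair the F-box with a domain also found in FOG-2, which acts in hermaphrodite sex determination, and most members have no assigned target. FBXA-75 and FBXA-158 are known in C. elegans as adaptors of the cullin CUL-6, in a ligase that belongs to the intracellular pathogen response. The transcription factor DAF-16, which mu86 disrupts, is the FOXO protein downstream of insulin signalling.

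Library totals ran between 34.4 M and 44.2 M counts, with a mean of 37.5 M ± 1.99 M (SD, n = 80, M standing for 1e+06). Levels are given as CPM, counts per M of a library's total after TMM scaling. As a check of the labels, daf-16 stood at 71.6 to 104.9 CPM in CF1038 and 125.9 to 199.5 CPM in the 30 N2 libraries, so the ranges did not overlap. These counts cover the whole gene and do not separate the part that mu86 removes. At day 14 and day 18, time-course libraries 1 to 3 stood apart from libraries 4 to 6. The summed level of 14 intestine markers at day 14 was 60060 to 73140 CPM in libraries 1 to 3 and 28780 to 31560 CPM in libraries 4 to 6. Several values are also given by set.

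The family was spread over a wide range of low levels. Of the 170 members, 104 reached a mean of 1 CPM over the 80 libraries, 23 reached 10 CPM and 15 stayed under 0.1 CPM. Per kilobase of exon, the median member stood at 1.18 CPM per kb and the highest, fbxa-215 (chromosome IV, 13665364 to 13666909), at 176.6. fbxa-215 alone took 22.9% of the family's summed CPM, and the top 10 members by mean CPM took 54.8%. The next members per kb were fbxa-60 at 60.7, the neighbouring chromosome V genes fbxa-107 at 47.7 and fbxa-210 at 44.5, and fbxa-101 on chromosome I at 41.1 CPM per kb. RSEM assigned fractional counts to 14 members in 40 libraries or more, as happens where reads match more than 1 gene, and 138 members had whole counts in every library. Exons of 8 members overlap another protein-coding gene on the same strand and those of 17 on the other strand. The level of each such member may be uncertain by reads shared with its partner, although some overlapping members, such as fbxa-88, had whole counts in every library.

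Members with enough counts were tested. Of the 170, 28 had too few for the age fit, 31 for the strain fit and 23 for either, which left 139 members tested between the strains. Calls are edgeR quasi-likelihood tests with a Benjamini-Hochberg adjusted p under 0.05 over all genes tested. Because a filter on low counts passes a gene that is high in only 1 age or strain, counts among tested members describe those members and not the whole family.

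With age, more fbxa genes were higher than lower than at day 6, most of all at day 14. At day 8, 18 of the tested members (170 less 28) were higher and 5 lower, against 5.55% of all genes tested being higher and 6.12% lower. At day 11, 40 were higher and 14 lower, against 24.1% and 19.9% of all genes. At day 14, 70 were higher and 15 lower, against 29.8% and 26.9%. At day 18, 46 were higher and 37 lower, against 29% and 28%, so the shares at day 18 lay near those of all genes. As shares of the tested members, the higher calls were 12.7% at day 8, 28.2% at day 11, 49.3% at day 14 and 32.4% at day 18. The median log2 fold change of the members was 0.40 at day 14, against 0.01 over all genes, and 0.12 at day 18, against -0.01. Changes of 2-fold or more were called higher in 32 members and lower in 8 at day 14, where 14.9% and 6.71% of all genes made those thresholds. The 4 ages share the day 6 libraries as their control, so their counts are not independent of each other. Of the members tested with age, 60 had their highest mean at day 14, 35 at day 18, 25 at day 8, 16 at day 6 and 6 at day 11. The age of the highest mean was not computed over all genes, so these counts describe the members only.

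**Figure D1:**
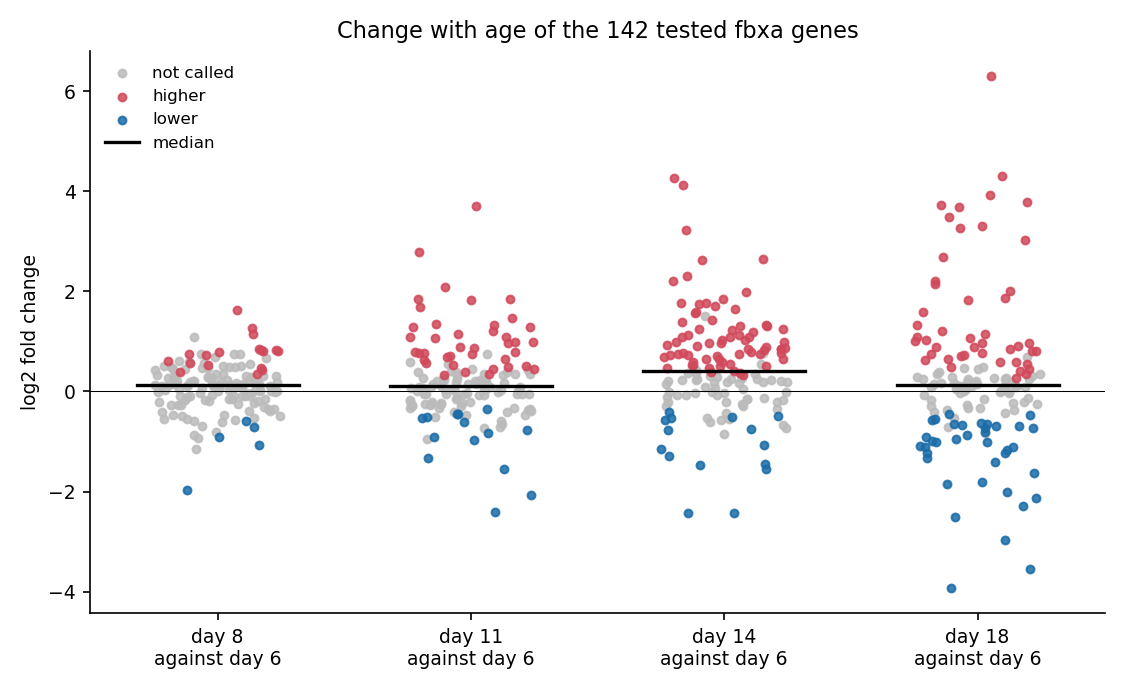
Log2 fold change of each tested fbxa gene at days 8, 11, 14 and 18 against day 6 of the N2 time course, 1 point per gene, with members called higher in red, called lower in blue and not called in grey, and the median as a black line. The median lies furthest above 0 at day 14 (0.40), and day 18 has the widest spread, between -3.92 and 6.30.

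The strength of the day 14 excess depended on the libraries. In libraries 4 to 6 of each age alone, 41 members were higher at day 14 with a median log2 fold change of 0.30, and in libraries 1 to 3 alone 72 were higher with a median of 0.57. In bulk RNA of whole worms, fewer cells of a type and less RNA per cell cannot be told apart, and this holds for each value below.

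fbxa-202 and fbxa-196, the members with the largest increases at day 18, were at low levels in young worms. fbxa-202 (chromosome V, 6327280 to 6328865) had a lowest, median and highest level of 3.97, 5.53 and 9.14 CPM at day 18, against 0, 0.0699 and 0.223 CPM at day 6. Every day 18 library lay above every day 6 library, and the day 14 libraries, at 1.05 to 2.12 CPM, lay between them. It was already called higher at day 11 (log2 1.69), a call lost in libraries 4 to 6 alone (1.10, adjusted p = 0.0852). Its log2 fold change at day 18 was 6.30 (SE 0.44, adjusted p = 1.11e-13), the largest of the family. Because 1 of the 6 day 6 libraries had no count for it, the size of that fold is loosely fixed. fbxa-196, on the same chromosome at 6448656 to 6450217, had 2.75, 3.65 and 6.64 CPM at day 18 and 0.132, 0.205 and 0.314 CPM at day 6 (log2 4.31, SE 0.32, adjusted p = 3.62e-13). It was still at 0.0812 to 0.332 CPM at day 11, overlapping the day 6 range, and passed the test at day 14 (log2 2.31, SE 0.33, adjusted p = 5.48e-07).

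fbxa-125 on chromosome I and fbxa-224 on chromosome II were also called higher at day 14 and day 18. fbxa-125 averaged 3.27 ± 1.08 CPM at day 18 and 0.252 ± 0.123 CPM at day 6 (SD, n = 6 each; log2 3.73, SE 0.29, adjusted p = 9.43e-13). fbxa-224 averaged 1.36 ± 0.436 CPM at day 18 and 0.105 ± 0.106 CPM at day 6 (log2 3.69, SE 0.46, adjusted p = 3.17e-08). Neither gene passed the test at day 8 or day 11. At day 18, the mean of libraries 4 to 6 exceeded that of libraries 1 to 3 in fbxa-202 (7.925 and 4.56 CPM), fbxa-196 (5.515 and 2.90 CPM), fbxa-125 (4.14 and 2.40 CPM) and fbxa-224 (1.602 and 1.11 CPM). The log2 fold changes at day 18 in libraries 1 to 3 alone were 6.92 for fbxa-202, 3.43 for fbxa-196 and 2.82 for both fbxa-125 and fbxa-224, and in libraries 4 to 6 alone they were 5.18 for fbxa-196, 4.78 for fbxa-125 and 5.0 for fbxa-224.

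Markers of sperm also changed with age. Of 36 tested, 1 was higher and 21 lower at day 8, and 32 were higher and none lower by edgeR at day 11. Of the 4 late members, only fbxa-202 was called higher at day 11. All 36 tested sperm markers of 37 were higher at day 14 and at day 18, and their summed level had a median of 35.5 CPM at day 6, 29.3 CPM at day 8, 93.5 CPM at day 11, 585 CPM at day 14 and 1601 CPM at day 18. The lowest and highest sums were 1165 and 2713 CPM in the day 18 libraries, against 26.7 and 60.2 CPM in those of day 6. None of the 37 markers was at 0 in all libraries of day 6 or day 18. At day 18 the sum was 1165 to 1636 CPM in libraries 1 to 3 and 1537 to 2713 CPM in libraries 4 to 6. Their part in the increase of the 4 late members was not tested.

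Further members, like fbxa-202, were higher by day 8 or day 11. fbxa-218 (chromosome III, 12436515 to 12441058) had a median of 0.873 CPM at day 6, 1.25 at day 8, 3.28 at day 11, 5.12 at day 14 and 12.5 at day 18. Its libraries ranged over 7.83 to 15.0 CPM at day 18 and 0.641 to 1.43 CPM at day 6, and from day 11 on no library overlapped those of day 6. The log2 fold change was 1.85 at day 11 (SE 0.20, adjusted p = 2.13e-08), 2.65 at day 14 (SE 0.20, adjusted p = 2.97e-12) and 3.79 at day 18 (SE 0.21, adjusted p = 3.69e-16). fbxa-43 (chromosome III, 2257527 to 2258963) was already higher at day 8, at 0.857 to 1.68 CPM against 0.343 to 0.542 CPM at day 6 (log2 1.63, SE 0.35, adjusted p = 0.00237), a call lost in libraries 4 to 6 alone (1.53, adjusted p = 0.0673). By day 18 its libraries spread over 2.61 to 9.11 CPM, with a mean of 8.01 in libraries 1 to 3 and 3.885 in libraries 4 to 6 (log2 3.92, SE 0.34, adjusted p = 1.5e-11). fbxa-155 (chromosome III, 10007966 to 10010217) averaged 5.06 ± 1.74 CPM at day 18 and 0.474 ± 0.370 CPM at day 6 (SD, n = 6 each; log2 3.49, SE 0.50, adjusted p = 6.54e-07), with 4.35 in libraries 1 to 3 alone. Its means at day 11 and day 14, 1.91 and 1.84 CPM, were close to each other. The day 11 call of fbxa-155 (log2 2.08) was lost in libraries 4 to 6 alone (1.36, adjusted p = 0.0771). fbxa-118 and fbxa-194, which overlap in an exon on chromosome V, were both higher from day 8 on, with log2 fold changes at day 18 of 2.20 (SE 0.21) and 1.59 (SE 0.27). The mean of fbxa-194 was highest at day 11, at 1.72 CPM, and stood at 1.42 CPM at day 18. In libraries 4 to 6 alone fbxa-194 lost its calls at day 8 (1.09, adjusted p = 0.189) and day 14 (0.78, adjusted p = 0.167).

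Members at moderate levels also climbed. fbxa-24 (chromosome II, 3816526 to 3818238) averaged 21.9 ± 4.62 CPM at day 18 and 6.30 ± 1.67 CPM at day 6 (log2 1.87, SE 0.22, adjusted p = 1.8e-08). fbxa-95, the tenth member per kb, averaged 29.2 ± 3.35 CPM at day 18 and 13.3 ± 1.22 CPM at day 6 (log2 1.21, SE 0.18, adjusted p = 7.71e-07). Its neighbour fbxa-94 had a log2 fold change of 2.15 at day 18 (SE 0.19, adjusted p = 4.18e-11).

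**Figure D2:**
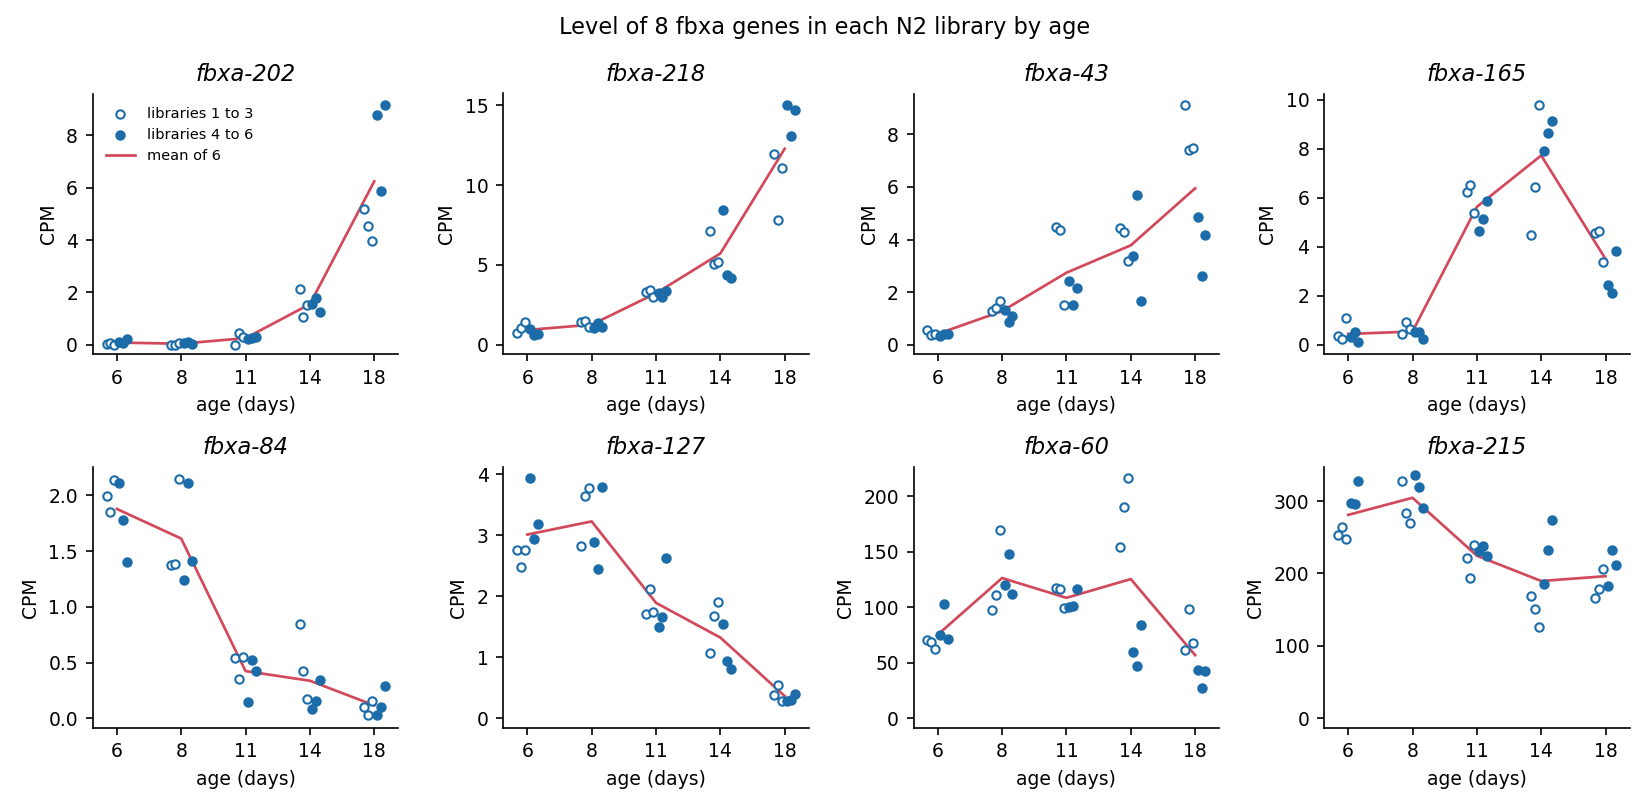
Level (CPM) of 8 fbxa genes in each of the 6 N2 libraries at days 6, 8, 11, 14 and 18, with open points for libraries 1 to 3, filled points for libraries 4 to 6 and a line through the means. fbxa-202 is highest at day 18, fbxa-218 and fbxa-43 climb over the whole course, and fbxa-165 is highest at day 14. fbxa-84 and fbxa-127 decline, fbxa-60 divides into both sets of libraries at day 14, and fbxa-215 stays the most abundant.

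A further group was highest at day 14. fbxa-165 (chromosome II, 1614689 to 1616482) had a median of 0.330 CPM at day 6, 0.511 at day 8, 5.64 at day 11, 8.28 at day 14 and 3.6 at day 18. All libraries of days 11, 14 and 18 lay above all libraries of day 6, whose highest was 1.09 CPM. Its log2 fold change was 3.70 at day 11 (SE 0.32, adjusted p = 5.57e-10), 4.12 at day 14 (SE 0.33, adjusted p = 6.23e-12) and 3.03 at day 18 (SE 0.32, adjusted p = 1.51e-09). It was also the member with the largest change at day 11. With all 36 N2 day 6 libraries as the control, the change at day 14 was 3.04 and that at day 18 was 1.93. In libraries 4 to 6 alone the change at day 14 was 4.73.

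fbxa-79 (chromosome III, 1305716 to 1308294), among the 10 highest members per kb, averaged 34.3 ± 7.11 CPM at day 14 and 14.8 ± 2.37 CPM at day 6 (log2 1.24, SE 0.13, adjusted p = 1.24e-09). At day 18 it stood at 21.1 ± 3.62 CPM (log2 0.59, SE 0.13, adjusted p = 0.000202), a call lost in libraries 4 to 6 alone (0.21, adjusted p = 0.248). fbxa-60 (chromosome III, 944733 to 946300), the second member per kb, had 46.8, 119.2 and 217 CPM as lowest, median and highest at day 14, against 62.6, 71.0 and 103 CPM at day 6. Libraries 1 to 3 averaged 187 CPM at day 14 and lay above every day 6 library, whereas libraries 4 to 6 averaged 63.5 CPM. The call at day 14 (log2 0.76, SE 0.29, adjusted p = 0.0255) therefore rested on libraries 1 to 3, and in libraries 4 to 6 alone the value was -0.35 (adjusted p = 0.26). fbxa-156 also averaged more in libraries 1 to 3 (55.3 CPM) than in libraries 4 to 6 (28.1 CPM) at day 14, and its counts were fractional in all 80 libraries.

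Other members declined with age, some of them deeply. fbxa-84 (chromosome V, 15182440 to 15184132) had 0.0254, 0.0988 and 0.291 CPM at day 18, against 1.40, 1.92 and 2.14 CPM at day 6. No library of days 11, 14 or 18 reached the day 6 range, and the log2 fold change at day 18 was -3.92 (SE 0.42, adjusted p = 2.18e-09). fbxa-127 (chromosome V, 16728731 to 16729960) had 0.279, 0.334 and 0.552 CPM at day 18, against 2.48, 2.85 and 3.94 CPM at day 6 (log2 -2.96, SE 0.22, adjusted p = 4.24e-13). Its decline was gradual, with a median of 1.72 CPM at day 11 and 1.31 CPM at day 14. fbxa-88 (chromosome V, 16142008 to 16143116) had 0, 0.149 and 0.304 CPM at day 18 and 0.964, 1.54 and 3.23 CPM at day 6 (log2 -3.54, SE 0.43, adjusted p = 2.11e-08). It overlaps fbxa-18 on the other strand, and both genes had whole counts in every library. Whether reads of either were counted for the other was not tested. fbxa-209, which overlaps fbxa-104 and a further gene, averaged 0.3895 ± 0.154 CPM at day 18 and 1.81 ± 0.375 CPM at day 6 (log2 -2.13, SE 0.26, adjusted p = 2.88e-08). fbxa-179 on chromosome X, which overlaps frpr-17 on the other strand, was lowest at day 14, where it averaged 0.579 CPM, against 1.65 CPM at day 6 (log2 -1.46, adjusted p = 4.5e-06).

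fbxa-83 and fbxa-47 were lower as early as day 8. fbxa-83 (chromosome IV, 14323237 to 14326383) averaged 9.57 CPM at day 6, 5.86 at day 8, 3.15 at day 11, 3.44 at day 14 and 3.66 at day 18, with no further drop of the mean after day 11. fbxa-47 (chromosome III, 2229992 to 2232460) averaged 1.53 CPM at day 6, 0.722 at day 8 and 0.672 at day 18 (log2 at day 18 -1.11, SE 0.26, adjusted p = 0.000472). The day 8 call of fbxa-83 (log2 -0.70, adjusted p = 0.0279) was lost in 6 of the fits that left out 1 library. It was also lost in libraries 4 to 6 alone (-0.49, adjusted p = 0.159). The day 8 call of fbxa-47 (log2 -1.07) was lost in libraries 4 to 6 alone too (-0.64, adjusted p = 0.296).

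fbxa-190, fbxa-74 and fbxa-72 were lowest at day 18, and how far they had declined by day 14 differed between the sets of libraries. fbxa-190 (chromosome X, 1372012 to 1374713) had 0.254 to 1.16 CPM at day 18 and 2.99 to 4.52 CPM at day 6 (log2 -2.50, SE 0.26, adjusted p = 1.27e-09), while at day 14 it stood at 1.74 to 4.63 CPM. Its day 18 value was -1.79 in libraries 1 to 3 alone and -3.51 in libraries 4 to 6 alone. fbxa-74 averaged 3.43 ± 0.898 CPM at day 18 and 14.5 ± 3.32 CPM at day 6 (log2 -2.0, SE 0.27, adjusted p = 1.46e-07). fbxa-72 averaged 0.943 ± 0.228 CPM at day 18 and 3.56 ± 0.499 CPM at day 6 (log2 -1.84, SE 0.21, adjusted p = 4.58e-09). At day 14 in libraries 1 to 3 alone, fbxa-74 was at log2 0.16 and fbxa-72 at 0.02, neither called. In libraries 4 to 6 alone both were already lower at day 14, at -1.55 (adjusted p = 9.87e-06) for fbxa-74 and -1.10 (adjusted p = 0.000969) for fbxa-72, and fbxa-190 was at -0.78 (adjusted p = 0.0209). fbxa-215, the most abundant member, declined mildly, with 166 to 233 CPM at day 18 and 248 to 328 CPM at day 6 (log2 -0.44, SE 0.13, adjusted p = 0.00341). With all 36 N2 day 6 libraries as the control that call was lost, at -0.21 (adjusted p = 0.086).

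Markers of some somatic tissues were lower at day 18, when 28% of all genes tested were lower. At day 18, 13 of 14 intestine markers, 9 of 10 body wall muscle markers and 3 of 8 hypodermis markers were lower, with 1 hypodermis marker higher. The summed intestine level was 14630 to 24130 CPM at day 18 and 47910 to 66930 CPM at day 6, and the muscle sum was 532 to 994.5 CPM at day 18 and 2149 to 4135 CPM at day 6. The hypodermis sum was 514.6 to 902 CPM at day 18 and 1344 to 2090 CPM at day 6. Of 20 germline and oocyte markers, 13 were lower and 2 higher at day 14, and 9 were lower and 5 higher at day 18, with a sum of 11400 to 12610 CPM at day 18 and 11710 to 14740 CPM at day 6. At day 14, 4 intestine markers were lower and 2 higher, 6 muscle markers were lower, and 3 hypodermis markers were lower and 1 higher. Of 12 neuron markers, 4 were higher and 1 lower at day 14, and 2 were higher and 5 lower at day 18. Of 7 tested pharynx markers, none was called at day 14 by edgeR and 1 was lower at day 18. No marker of these lists was at 0 in all libraries of an age. The part of these tissues in the changes of the members was not tested.

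The other F-box families had another course. Of 94 tested fbxb genes, which pair the F-box with a different C-terminal domain, 1 was higher and 68 lower at day 18, with a median log2 fold change of -1.26. At day 14 none of the 94 was higher by the edgeR test and 67 were lower, with a median of -1.08. Of 45 tested fbxc genes, 6 were higher and 26 lower at day 18, with a median of -0.52. Among the fbxc genes that were higher, fbxc-43 had a log2 fold change of 2.24 at day 18 (SE 0.21, adjusted p = 5.52e-11). The difference between the families was not tested. Of 34 tested genes of the SCF core and its regulators, 5 were higher and 15 lower at day 18, and of 8 conserved F-box genes 2 were higher and 2 lower. Beside these counts, 29% of all genes tested were higher and 28% lower at day 18, and 29.8% and 26.9% at day 14. The Skp1-like genes skr-13 and skr-10 fell by log2 1.99 and 1.84, whereas the main cullin gene cul-1 stood at 119.3 CPM at day 18 and 115.9 CPM at day 6 (adjusted p = 0.211).

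**Figure D3:**
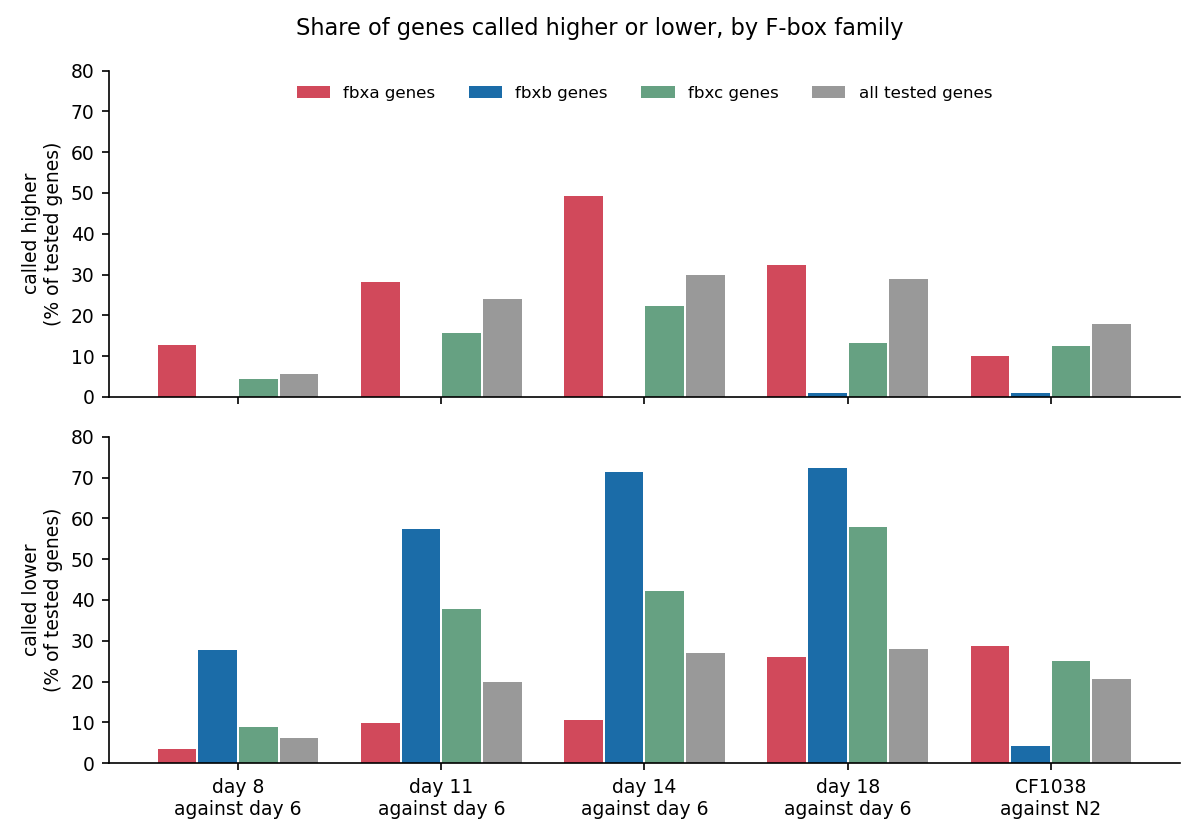
Share of the tested genes called higher (upper panel) or lower (lower panel), in percent, for fbxa, fbxb and fbxc genes and for all tested genes, at days 8, 11, 14 and 18 against day 6 and in CF1038 against N2. The fbxa bar for higher calls stands at 49.3% at day 14, where all genes stand at 29.8%, and in CF1038 at 10.1%, where all genes stand at 18%.

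The members are clustered along the chromosomes. Chromosome V holds 71 of them, III 60, II 14, X 14, I 6 and IV 5, and 118 lie in 24 runs in which neighbouring members are at most 20 kb apart. The longest run, on chromosome III between 1239048 and 1349450, holds 26 members. Of its 24 members tested with age, 17 were higher and none lower at day 14 by the edgeR test, with a median log2 fold change of 0.77, and 9 were higher and 8 lower at day 18. In libraries 1 to 3 alone 21 were higher and none lower at day 14, and in libraries 4 to 6 alone 8 were higher and 2 lower. The other 6 protein-coding genes inside the run gave 3 tested genes, of which 2 were higher at day 14. A second run on III, between 933422 and 963833, holds fbxa-60 and 9 further members, and 7 of its 8 tested members were higher at day 14. Of all genes tested, 29.8% were higher and 26.9% lower at day 14, and 29% and 28% at day 18.

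Counts of called members differed between chromosomes, beside 29.8% of all genes tested being higher and 26.9% lower at day 14. At day 18 those shares were 29% and 28%. Shares of all genes on each chromosome were not computed. On III, 34 of 54 tested members were higher and 1 lower at day 14, on V 24 of 56 were higher and 8 lower, and on X none of 10 was higher and 2 were lower. At day 18, 16 members on III were higher and 17 lower, and on X again none was higher and 3 were lower. These groupings were chosen after the values were known and carry no test.

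In CF1038 worms, more members were lower than higher than in N2 worms of the same age. Of 139 tested members, 14 were higher and 40 lower, against 18% and 20.7% of all genes tested, and the median log2 fold change was -0.10, against -0.01 over all genes. At 2-fold or more, 7 members were lower and none was higher by edgeR, where 1.67% and 0.819% of all genes made those thresholds. The share of higher members lay below that of all genes and the share of lower members above it.

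The clearest difference was fbxa-151 (chromosome III, 1265623 to 1266899). It had no count in any of the 20 CF1038 libraries, against 45 to 172 counts with a median of 110.5 in the 30 N2 libraries. In CPM the N2 libraries had a lowest, median and highest level of 1.35, 2.85 and 4.34, with a mean of 2.77 ± 0.891. Taking 3 counts per library as the floor, the highest floor among the CF1038 libraries was 0.0875 CPM. The N2 mean was 31.6-fold that floor and the lowest N2 library 15.4-fold. The edgeR test of CF1038 against N2 gave an adjusted p of 1.14e-22. These folds take the N2 level as counted, which is uncertain because reads may match fbxa-78 as well. The 6 time-course N2 libraries at day 6 had 1.93 to 5.45 CPM and lay far above that floor as well. In the time course fbxa-151 was lower at day 18, with 0.659 to 1.24 CPM against 1.93 to 5.45 CPM at day 6 (log2 -1.80, SE 0.37, adjusted p = 0.00011). That value was -0.99 in libraries 1 to 3 alone and -2.59 in libraries 4 to 6 alone. At day 14 fbxa-151 was not called (log2 -0.54, adjusted p = 0.19), with 0.48 (adjusted p = 0.114) in libraries 1 to 3 alone and -1.77 (adjusted p = 0.00388) in libraries 4 to 6 alone.

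fbxa-78 (chromosome III, 1257182 to 1258458) lies nearby on the same strand as fbxa-151, with the same span of 1277 bp and the same exon length of 928 bp. fbxa-78 had 1.35, 2.07 and 3.47 CPM in CF1038, against 2.38, 4.37 and 6.20 CPM in N2, with an overlap of the ranges and a log2 change of -0.97 (SE 0.10, adjusted p = 6.76e-12). Both genes had fractional counts in all 30 N2 libraries, and neither had them in any CF1038 library. Such counts arise where reads match more than 1 gene, so the level of either alone is uncertain in N2. The sum of the pair, which does not change with a division of reads between them, averaged 2.18 ± 0.516 CPM in CF1038 (n = 20) and 7.0 ± 1.51 CPM in N2 (SD, n = 30). The highest CF1038 library, at 3.47 CPM, lay below the lowest N2 library, at 3.74 CPM.

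**Figure D4:**
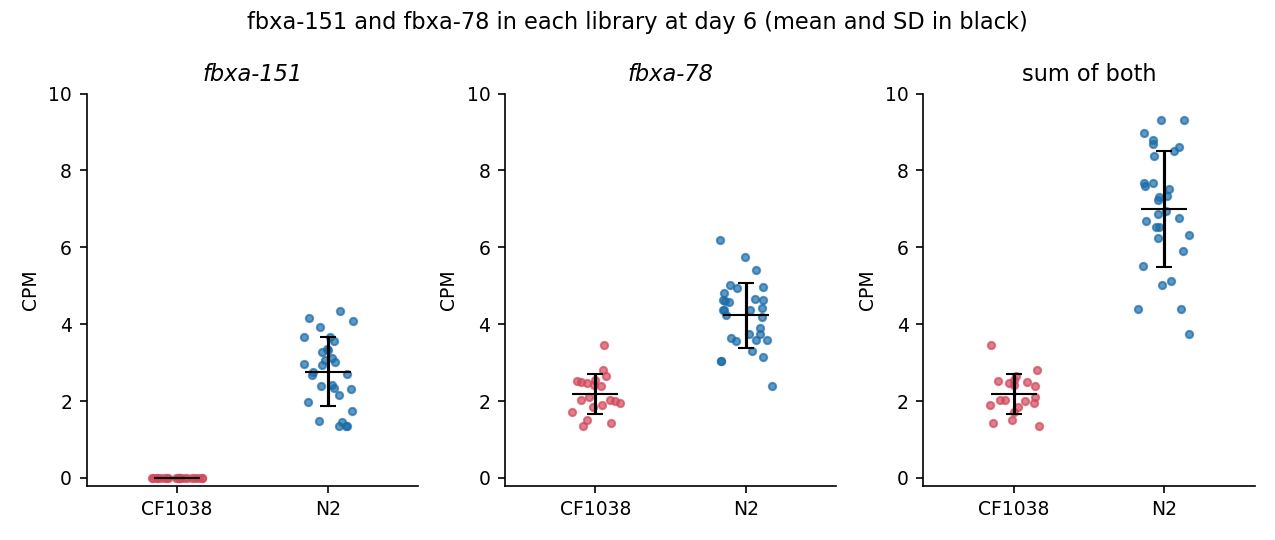
Level (CPM) of fbxa-151, of fbxa-78 and of their sum in each of the 20 CF1038 libraries and the 30 N2 libraries at day 6, 1 point per library, with mean and SD in black. fbxa-151 is at 0 in every CF1038 library, fbxa-78 is at 2.18 CPM in CF1038 and 4.23 CPM in N2 on average, and the sums do not overlap.

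The genes on either side of fbxa-151 were present in both strains. fbxa-32, which starts 1676 bp further along, averaged 1.24 ± 0.358 CPM in CF1038 and 1.18 ± 0.278 CPM in N2 (log2 0.06, adjusted p = 0.7). Beyond it, fbxa-31 was slightly lower (log2 -0.23, adjusted p = 0.0307), whereas fbxa-29 and fbxa-30 were not called, at log2 -0.02 (SE 0.16, adjusted p = 0.918) and 0.03 (SE 0.17, adjusted p = 0.908). On the other side, the chemoreceptor gene srz-9 was close to the floor in both strains, at 0.00899 CPM in CF1038 and 0.0332 CPM in N2, and was not tested. Each of the other 25 members of the run had counts in CF1038.

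The run around fbxa-151 held many of the lower members. In the run of 26 on chromosome III, 15 of 23 tested members were lower in CF1038 and none was higher by the edgeR test, with a median log2 fold change of -0.23. Of all genes tested between the strains, 20.7% were lower and 18% higher. Most of the differences in the run were small. fbxa-75 (log2 -1.17), fbxa-78 (-0.97), fbxa-27 (-0.76), fbxa-26 (-0.70) and fbxa-5 (-0.70) were the largest after fbxa-151, and the other 9 lay between -0.40 and -0.21. The 4 tested genes inside the run that are not members were not called. With CF1038 libraries 1 to 10 alone 6 members of the run were lower, with libraries 11 to 20 alone 12, and with the 6 time-course N2 libraries as the control 9 of 22, none being higher in any of these 3 fits. In the last of these, fbxa-27 and fbxa-26 were no longer called, at -0.46 (adjusted p = 0.0781) and -0.45 (adjusted p = 0.165). The family-wide count of 40 lower members was 23 in libraries 1 to 10, so both counts depended on which CF1038 libraries were used.

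**Figure D5:**
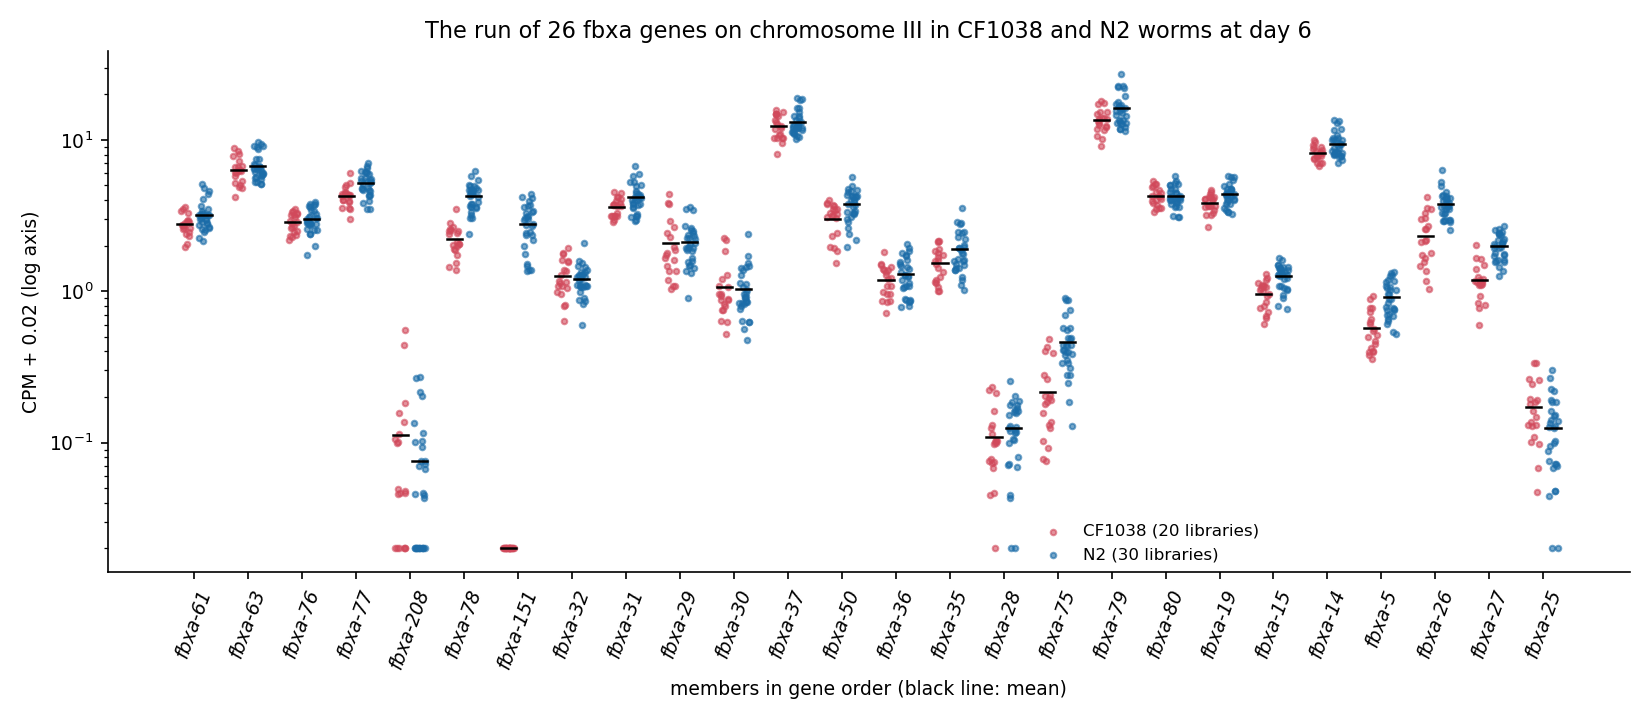
Level (CPM + 0.02, log axis) of the 26 fbxa genes of the longest run in gene order, in each of the 20 CF1038 libraries (red) and 30 N2 libraries (blue), with the mean as a black line. fbxa-151 has no count in CF1038, and 15 of the 23 tested members were called lower in CF1038.

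fbxa-105 (chromosome V, 7390529 to 7392029) had the smallest adjusted p after fbxa-151. Its lowest, median and highest levels were 3.15, 4.12 and 4.94 CPM in CF1038, against 6.07, 7.73 and 9.87 CPM in N2, and the ranges did not overlap. The log2 fold change was -0.92 (SE 0.06, adjusted p = 3.29e-18). The 6 time-course N2 libraries at day 6, at 7.58 to 13.2 CPM, also lay above every CF1038 library. With age, fbxa-105 was lower at day 18, at 5.0 ± 0.795 CPM against 9.22 ± 2.06 CPM at day 6 (n = 6 each; log2 -0.81), although libraries 1 to 3 alone gave -0.44 (adjusted p = 0.0623).

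A run of 6 members on chromosome II, between 1609252 and 1624672, had 3 lower members among 5 tested. Of all genes tested between the strains, 20.7% were lower and 18% higher, and the run was chosen after its values were seen. fbxa-163, the sixth member per kb, had 9.66, 16.8 and 21.96 CPM in CF1038 and 19, 25.4 and 35.6 CPM in N2 (log2 -0.66, SE 0.09, adjusted p = 1.23e-07). Its neighbour fbxa-164 had 0.224, 0.534 and 1.47 CPM in CF1038 and 0.701, 1.24 and 3.55 CPM in N2 (log2 -1.24, SE 0.20, adjusted p = 1.81e-06). fbxa-165, beside them, averaged 0.516 ± 0.177 CPM in CF1038 and 1.06 ± 0.331 CPM in N2 (log2 -1.04, SE 0.14, adjusted p = 3.76e-08). The time-course N2 libraries at day 6 had only 0.442 ± 0.345 CPM of fbxa-165, and against those 6 the value was 0.20 (adjusted p = 0.676), so its call depended on the N2 set.

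The 7 members that were lower by 2-fold or more were fbxa-151, fbxa-164, fbxa-165, fbxa-66, fbxa-6, fbxa-75 and fbxa-73, the last at 0.540 CPM on average in N2 (log2 -1.04, adjusted p = 3.68e-08). fbxa-66 (chromosome III, 2309792 to 2314035) had 0.232 to 0.628 CPM in CF1038 and 0.496 to 1.95 CPM in N2 (log2 -1.23, SE 0.14, adjusted p = 4.25e-10). fbxa-6 (chromosome III, 1219 to 3097) had 0.743 to 1.93 CPM in CF1038 and 1.51 to 5.38 CPM in N2 (log2 -1.09, SE 0.13, adjusted p = 3.57e-09). Against the time-course N2 libraries, fbxa-6 gave -0.19 (adjusted p = 0.477).

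Members that were higher in CF1038 changed less, none by 2-fold. fbxa-157 (chromosome V, 17899803 to 17901906) had 2.27, 3.15 and 4.61 CPM in CF1038 and 1.19, 2.06 and 2.92 CPM in N2 (log2 0.64, SE 0.09, adjusted p = 1.73e-07), with fractional counts in all 80 libraries. fbxa-192 averaged 14.4 ± 2.71 CPM in CF1038 and 10.03 ± 2.31 CPM in N2 (log2 0.52, SE 0.08, adjusted p = 1.47e-06). fbxa-211 averaged 9.57 ± 1.68 CPM in CF1038 and 7.13 ± 1.07 CPM in N2 (log2 0.42, SE 0.06, adjusted p = 2.63e-07), and fbxa-108 averaged 10.6 ± 1.64 CPM in CF1038 and 8.69 ± 1.39 CPM in N2 (log2 0.28, SE 0.07, adjusted p = 0.000806). The CF1038 and N2 ranges overlapped for each of these 4 genes. The calls of fbxa-24, fbxa-71, fbxa-108, fbxa-206, fbxa-210 and fbxa-101 were lost, and the signs of fbxa-60 and fbxa-72 turned, when the 6 time-course N2 libraries were the control.

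Tissue markers differed between the strains too. Of 34 tested sperm markers 28 were higher and 1 lower in CF1038, with a summed level of 28 to 79.9 CPM in CF1038 and 19.8 to 54.6 CPM in N2. Of 12 neuron markers 6 were lower and none higher by edgeR, with a sum of 389 to 476 CPM in CF1038 and 390.4 to 588 CPM in N2. Of 14 intestine markers 3 were higher and 5 lower, with a sum of 25200 to 56050 CPM in CF1038 and 24560 to 65980 CPM in N2. Of 20 germline and oocyte markers 8 were higher and none lower by edgeR, with a sum of 9500 to 14050 CPM in CF1038 and 6980 to 14080 CPM in N2. Of 10 body wall muscle markers 3 were lower and none higher by edgeR, with a sum of 763.4 to 3159 CPM in CF1038 and 1430 to 3724 CPM in N2. Of 8 hypodermis markers 1 was lower. No list had a marker at 0 in every library of either strain, and the part of these tissues in the fbxa calls was not tested.

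The CUL-6 adaptor gene fbxa-75 (chromosome III, 1303714 to 1305461) stood near the floor. It averaged 0.121 ± 0.0888 CPM at day 6 of the time course, 0.750 CPM at day 14 and 0.761 ± 0.407 CPM at day 18, and was higher at day 14 (log2 2.63, SE 0.50, adjusted p = 4.6e-05) and day 18 (log2 2.69, SE 0.49, adjusted p = 2.76e-05). Against all 36 N2 day 6 libraries those values were 0.96 (adjusted p = 0.0105) and 1.01 (adjusted p = 0.00612), and in libraries 4 to 6 alone the day 18 value was 2.03 (adjusted p = 0.0222). In CF1038 it had 0.0559, 0.168 and 0.467 CPM, against 0.110, 0.405 and 0.883 CPM in the 30 N2 libraries (log2 -1.17, SE 0.22, adjusted p = 2.3e-05). The time-course N2 libraries at day 6, at 0.0285 to 0.262 CPM, lay no higher than CF1038, and the N2 sets themselves differed by log2 -1.87 (SE 0.38, adjusted p = 0.00206).

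fbxa-158 (chromosome II, 1619814 to 1621280), the other CUL-6 adaptor gene, changed less. It averaged 5.31 CPM at day 14 and 3.94 ± 1.12 CPM at day 6 (log2 0.46, SE 0.16, adjusted p = 0.019), and that call was lost when any of 4 single libraries was left out, with values of 0.37 to 0.40, and with all 36 N2 day 6 libraries, at -0.04 (adjusted p = 0.841). In CF1038 it averaged 5.07 ± 1.18 CPM, against 5.88 ± 1.33 CPM in N2 (log2 -0.23, SE 0.10, adjusted p = 0.0658). Among its known partners, skr-5 had 1.17 CPM in CF1038 and 2.63 CPM in N2 (log2 -1.17, SE 0.16, adjusted p = 9.41e-08), skr-4 fell by log2 0.40 (adjusted p = 0.000101) and cul-6 itself by log2 0.25 (adjusted p = 0.000268). At day 14 cul-6 was higher by log2 0.73 (adjusted p = 2.72e-06).

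The wider list of intracellular pathogen response genes had calls in both directions. Of 41 tested genes of that list, 26 were higher and 9 lower at day 18, with a median log2 fold change of 0.66, where 29% of all genes tested were higher and 28% lower. In CF1038 2 of 38 were higher and 19 lower, with a median of -0.25, where 18% of all genes tested were higher and 20.7% lower. Between the N2 sets at day 6, 2 of 41 were higher and 14 lower in the time-course set, with a median of -0.49. pals-26, a gene of this response, had 1.26 CPM in CF1038 and 3.62 CPM in N2 (log2 -1.54, SE 0.11, adjusted p = 2.07e-16), and at day 18 it had 8.32 CPM against 2.89 CPM at day 6 (log2 1.6, SE 0.15, adjusted p = 1.31e-10).

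The age and strain comparisons share no library, and their calls can be set side by side. Of the 40 members lower in CF1038, 14 (35%) were lower at day 18 and 6 (15%) were higher at day 18. Of all members tested with age, 26.1% were lower and 32.4% higher at day 18. Of the 37 members lower at day 18, the same 14 made up 37.8%, where 28.8% of all members tested between the strains were lower in CF1038. The 6 that were higher at day 18 and lower in CF1038 were fbxa-35, fbxa-62, fbxa-75, fbxa-79, fbxa-153 and fbxa-165. fbxa-24, fbxa-106, fbxa-108 and fbxa-192 were higher in both comparisons, and fbxa-47 and fbxa-72 were lower at day 18 and higher in CF1038. Against the 6 time-course N2 libraries, fbxa-79 lost its CF1038 call (-0.13, adjusted p = 0.453) and fbxa-165 turned to 0.20. fbxa-75, fbxa-153 and fbxa-165 were also called between the N2 sets, as were fbxa-6, fbxa-59, fbxa-88 and fbxa-127 of the 14. Among the 14, fbxa-6, fbxa-26, fbxa-78 and fbxa-105 lost their day 18 calls in libraries 1 to 3 alone (adjusted p = 0.227, 0.22, 0.726 and 0.0623). The day 18 call of fbxa-6 was also lost in several fits that left out 1 library.

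Day 6 N2 worms of the time course and of the second set also differed. Of the tested members (170 less 28) 10 were higher and 16 lower in the time-course set, against 6.51% and 12.3% of all genes. The members with the largest differences were fbxa-75, fbxa-222 (log2 -1.35, adjusted p = 0.0115) and fbxa-165 (log2 -1.25, adjusted p = 0.00363). Of the members called in CF1038, 11 were also called between the N2 sets, and these 2 comparisons share the 30 N2 libraries.

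Some members were called at no age in the fit of all libraries. Of the members tested with age, 23 were called at no age, and the matching share of all genes was not computed. Among members called in no age or strain comparison, the most abundant were fbxa-170, at 10.9 ± 2.30 CPM at day 18 and 9.43 ± 0.423 CPM at day 6, and fbxa-120, at 5.75 ± 0.646 CPM at day 18 and 5.10 ± 1.11 CPM at day 6, both on chromosome X. In libraries 1 to 3 alone both were lower at day 14, at log2 -0.87 (adjusted p = 1.57e-05) for fbxa-170 and -0.64 (adjusted p = 0.00139) for fbxa-120. Without library 6 of day 14, fbxa-170 was also lower at that age (-0.50, adjusted p = 0.00543). In libraries 4 to 6 alone both were higher at day 18, at 0.47 (adjusted p = 0.0488) for fbxa-170 and 0.57 (adjusted p = 0.0419) for fbxa-120. In CF1038 fbxa-170 averaged 8.5 ± 1.16 CPM, against 8.62 ± 1.91 CPM in N2 (log2 -0.03, adjusted p = 0.802). The whole family's summed level averaged 1079 ± 72.02 CPM at day 6, 1263 ± 54.7 CPM at day 8 and 1105 ± 27.6 CPM at day 11. It averaged 1198 ± 108.3 CPM at day 14 and 1053 ± 38.5 CPM at day 18. Every day 8 library, at 1192 to 1349 CPM, lay above every day 6 library, at 1007 to 1179 CPM. In CF1038 the sum averaged 987 ± 88.3 CPM, against 970.4 ± 75.2 CPM in the 30 N2 libraries.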

How the data were processed

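The authors deposited expected counts per gene for 80 libraries. The submitters' processing notes name FastQC, STAR 2.7.11b, RSEM 1.3.3 and the WBcel235 genome. Kit and strand: not given in the sources used here. Expected counts were rounded to whole counts; 2.73% of all deposited values and 7.65% of those of fbxa genes were not whole. Symbols, exon lengths and coordinates came from the Ensembl WBcel235 annotation, which gave a symbol for 44017 gene IDs.

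The 30 time-course libraries were fitted together by age, and CF1038 with the second N2 set, using edgeR 4.0.16 (filterByExpr, TMM, robust quasi-likelihood, 2-sided F test, Benjamini-Hochberg over all genes). SE was derived as log2 fold change over root F. CPM come from TMM scaling over all 80 libraries so their precision follows from 34.4 to 44.2 (units of 1e+06) counts per library. The floor of 3 counts covers counting error only. DESeq2 1.42.0, RLE size factors, no count filter, a replicate block, subsets of libraries, other day 6 controls and leaving out each time-course library were tried. Other software was R 4.3.3, limma 3.58.1, Python 3.11.15 and matplotlib 3.10.9. The fits were tested on simulated data. No within-group pair of libraries agreed within sampling noise; the closest pair differed by 2.31 times that noise.

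Named genes follow a rule: fbxa-151, fbxa-202, fbxa-218, fbxa-75 and fbxa-158; per direction the 10 called members with the largest absolute log2 fold change and at least 1 CPM in the higher group at day 18 and in CF1038, and 5 at days 8, 11 and 14; the 10 highest per kb; and the 5 highest called in no comparison. fbxa-5, fbxa-29 to fbxa-32 and srz-9 (neighbours), fbxa-73, fbxa-222 and the members listed with shared calls (fbxa-35, fbxa-59, fbxa-62, fbxa-106, fbxa-153) were chosen after their values were seen, as were the runs and chromosomes. Members and lists were chosen with earlier results of these data known. No sequence is shown.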

Additional observations from a re-analysis of the deposited data

Results flagged for a closer look

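Among the named members, 14 library values stood apart from the other 5 libraries of their age, out of 270 groups of 6 examined. Chance gives about 1 in 20 groups, so the number flagged is near what chance gives. In each case the gap to the nearest library was a large share of the whole range of the age.

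At day 8, library 3 was high in 4 members, with 29.9 CPM of fbxa-74 (others 16.4 to 21.1), 31.97 CPM of fbxa-156 (others 21.5 to 24.1), 2.59 CPM of fbxa-99 (others 1.22 to 1.503) and 2.33 CPM of fbxa-53 (others 1.47 to 1.79). Library 5 of day 8 had 15.8 CPM of fbxa-170 (others 9.82 to 11.6). At day 6, library 5 had 103.1 CPM of fbxa-60 (others 62.6 to 74.7) and 13.2 CPM of fbxa-105 (others 7.58 to 9.33), and library 1 had 0.542 CPM of fbxa-43 (others 0.343 to 0.414).

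At day 11, library 4 had 3.31 CPM of fbxa-151 (others 1.54 to 2.18), and library 3 had 0.310 CPM of fbxa-224 (others 0.0541 to 0.136) and a low 5.80 CPM of fbxa-74 (others 8.93 to 10.4). At day 14, library 3 had 3.71 CPM of fbxa-66 (others 1.79 to 2.42). At day 18, library 4 had 30.8 CPM of fbxa-24 (others 18.5 to 22.9) and library 2 had 6.49 CPM of fbxa-105 (others 4.32 to 5.04).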

How the results depend on the processing

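Counts of fbxa genes called moved by more than 1.5 times under these settings. With libraries 4 to 6 alone, 3 were higher and 0 lower at day 8 by edgeR (24 and 3 at an unadjusted p under 0.05), 26 higher at day 11 and 41 higher at day 14. With libraries 1 to 3 alone, 27 were lower at day 14. With all 36 N2 day 6 libraries, 46 were higher and 35 lower at day 8, 28 lower at day 11 and 24 lower at day 14. In CF1038, 5 were higher and 23 lower with libraries 1 to 10, 22 were higher with libraries 11 to 20, 9 were higher against the 6 time-course N2 libraries, and 22 were higher with the replicate block. DESeq2, RLE size factors and no count filter moved no count that far.

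Leaving out each time-course library in turn gave 12 to 24 higher and 4 to 7 lower at day 8, 36 to 40 and 10 to 18 at day 11, 63 to 71 and 13 to 18 at day 14, and 44 to 48 and 33 to 41 at day 18.

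Samples were taken as paired only where every same-numbered pair had a correlation over 0.1. At each age 0 of 6 pairs did. For CF1038 15 of 20 did, with a median of 0.224 and a lowest of -0.303, and 1 library was best matched to its own number. With the replicate block, 18 were higher and 6 lower at day 8, 39 and 14 at day 11, 66 and 16 at day 14, 47 and 36 at day 18, and 22 and 50 in CF1038 with N2 libraries 1 to 20, against 21 and 42 for those libraries without the block.

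The sign turned with all 36 N2 day 6 libraries for fbxa-75 at day 8 (-1.36) and day 11 (-0.21), fbxa-158 at day 14 (-0.04) and day 18 (-0.39), fbxa-165 at day 8 (-0.80) and fbxa-6 at day 11 (-0.59). It turned with libraries 1 to 3 for fbxa-72 (0.02) and fbxa-108 (-0.31) at day 14, with libraries 4 to 6 for fbxa-60 at day 14 (-0.35), and against the 6 time-course N2 libraries for fbxa-165 (0.20), fbxa-72 (-0.06) and fbxa-60 (-0.17) in CF1038. The cause was not tested. Members under 1 CPM rest on few counts, so their folds are the least certain.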
